A study of Homo sapiens with 6 samples.

Results

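Transcript levels of 32 genes of DNA replication were followed in 6 xenograft tumors. The tumors grew in nude mice from CRL-5889, an established line of human lung squamous carcinoma cells, and were harvested at 4 weeks. In 3 of them the implanted cells had been transfected with the fusion TRA2B-DNAH5 (fusion tumors), and in the other 3 with the vector alone (vector tumors). The labels name neither the promoter of the construct, nor the mouse that carried each tumor, nor whether the transfected cells were 1 clone or a pool, so a difference between the cell populations cannot be told apart from the fusion. The 32 genes were chosen by name for their known role in copying DNA, out of 18132 genes with a probe set of their own. Each was read from 1 probe set, a group of array probes for the same transcript, namely the one with the highest mean over the 6 arrays. All 32 lay above the level of 4.94 (log2) under which probe sets were left out as dim, and all were among the 13694 genes tested.

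Replication starts where the origin recognition complex, with CDC6 and CDT1, loads the ring of MCM subunits onto DNA. CDC45 and the GINS proteins turn that ring into an active helicase, the polymerases copy both strands while PCNA holds them on the template, and ribonucleotide reductase and thymidylate synthase supply the nucleotides. Most of these genes are transcribed when cells enter S phase, under E2F transcription factors that are released from the retinoblastoma protein, and their transcripts are widely used as readouts of proliferation in tumors. The comparison asks whether tumors formed with the fusion carried more or less of this program than tumors formed with the vector.

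Of the promoters of these genes, 5 that hold an E2F-type motif upstream of the start are shown as examples. CDT1, E2F2, GINS2, MCM3, MCM7, POLA1, POLE2 and UHRF1 also have a match that begins upstream of a start and are not shown. In the RefSeq table for GRCh38.p14, which gives 250 bases before to 50 bases after each transcription start, 29 of the 32 genes were found; CCNE2, MCM4 and MCM5 were not matched. Both strands were searched for the E2F-type motifs TTTCCCGC, TTTGGCGC, TTTCGCGC and TTTGCCGC, and for CCAAT, the motif of the factor NF-Y. Below, capitals mark these motifs or their reverse complements (ATTGG for CCAAT), and each sequence is 120 bases long, ends at the base before the start except for MCM6, and is written in the direction of transcription.
MCM6, chr2:135876494-135876613, minus strand, from 170 to 51 bases before the start: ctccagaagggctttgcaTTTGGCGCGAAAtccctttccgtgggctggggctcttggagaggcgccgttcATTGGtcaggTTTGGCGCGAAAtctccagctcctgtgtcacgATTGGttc
E2F1, chr20:33686386-33686505, minus strand: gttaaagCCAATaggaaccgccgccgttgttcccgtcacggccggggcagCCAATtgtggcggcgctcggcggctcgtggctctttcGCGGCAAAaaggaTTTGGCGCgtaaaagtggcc
PCNA, chr20:5126623-5126742, minus strand: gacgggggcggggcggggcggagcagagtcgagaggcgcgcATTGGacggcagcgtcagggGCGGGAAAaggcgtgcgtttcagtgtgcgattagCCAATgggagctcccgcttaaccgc
RFC3, chr13:33818029-33818148, plus strand: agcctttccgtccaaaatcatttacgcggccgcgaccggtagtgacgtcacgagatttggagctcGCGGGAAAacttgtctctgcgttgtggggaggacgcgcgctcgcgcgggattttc
TYMS, chr18:657533-657652, plus strand: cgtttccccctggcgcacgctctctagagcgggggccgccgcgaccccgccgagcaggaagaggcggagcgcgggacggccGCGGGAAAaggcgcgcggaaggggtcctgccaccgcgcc

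No other RefSeq gene lies over these windows except TYMSOS, the antisense gene that overlaps the TYMS start. In MCM6 the same run occurs at both sites and holds TTTGGCGC and, on the other strand, TTTCGCGC, which overlap. E2F1, the gene of the transcription factor itself, has a pair of E2F-type matches close to its start. Of the 29 genes, 16 (55.2%) had an E2F-type match in at least 1 promoter, against 6.23% of 11043 tested genes in the table. CCAAT was present for 18 of the 29 (62.1%), against 42.5% of the tested genes. Counted by promoter, 17 of the 39 promoters of these genes (43.6%) held an E2F-type match, against 4.62% of 15920 promoters of tested genes and 3.31% of all 35116 promoters of the same length. The share was 30.4% in 56 promoters of other replication genes and 12.5% in 24 promoters of mitosis genes. CCAAT was found in 61.5% of the members' promoters, in 46.4% of those of the other replication genes and in 79.2% of those of the mitosis genes, against 34.4% for the tested genes. The median GC content was 67.7% in the members' promoters and 64.3% in those of the tested genes. A match describes the letters and is not evidence that a factor was bound in these tumors.

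The replication genes differed little between fusion and vector tumors, and none rose or fell past the threshold. Of 32 members, 0 passed an adjusted p of 0.05 by limma with Benjamini-Hochberg adjustment over all 13694 genes, where 10 genes (0.073%) did. At an unadjusted p below 0.05, 1 member was higher and 0 were lower in fusion tumors, while 3.16% of all genes passed that mark as higher, 2.73% as lower and 5.89% in either direction. The differences lay on both sides of 0, with 15 members above and 17 below, a median log2 fold change of -0.023 and a span from -0.17 to 0.28. Over all genes tested the median was 0.0020, with 50.8% above 0. In 23 of 32 members the difference was under 0.1 on the log2 scale, and in 30 it was under 0.2, against 56.8% and 84.4% of all genes tested.

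Against the spread among tumors, these differences were small about as often as those of all genes. In 26 of 32 members (81.2%) the fold change was below the larger of the SDs of the groups, which held for 78.5% of all genes. No member's 95% confidence interval reached beyond 0.52 on the log2 scale, equal to 1.44-fold, so larger changes lay outside the interval of every member. The bounds describe single genes and were not adjusted for the number of members. Tumors were the unit of replication, with 3 per group, and the precision is limited by that number. Because whole tumors were measured, fewer dividing cells and less RNA per cell cannot be told apart.

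**Figure D1:**
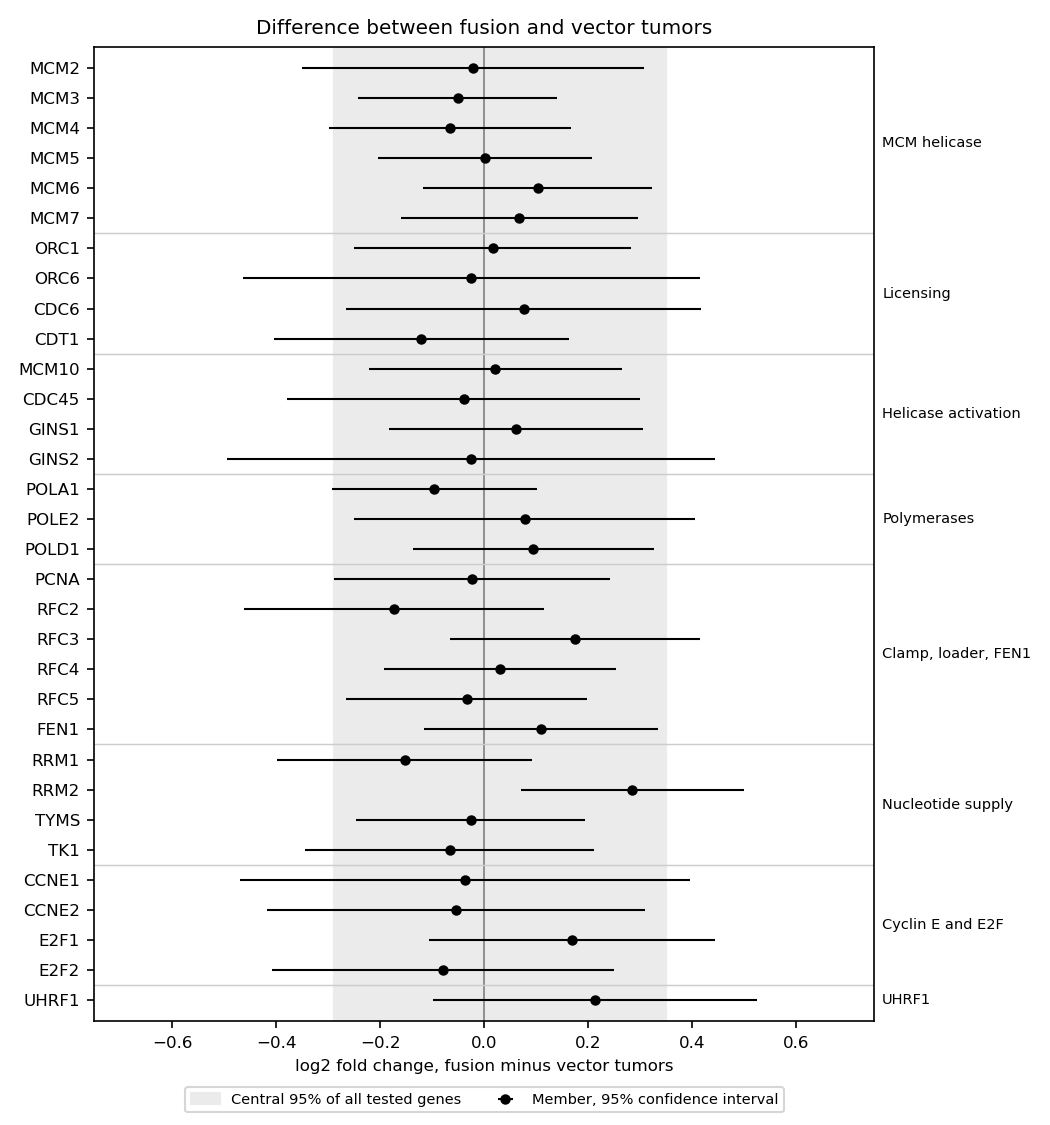
The log2 fold change of each of the 32 genes, fusion minus vector tumors (x axis, log2), with its 95% confidence interval from limma (bars; 3 tumors per group) and genes grouped by role. The grey band holds the central 95% of all 13694 genes tested, from -0.29 to 0.35; every member's point lies inside it and only the interval of RRM2 does not reach 0.

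Among the subunits of the MCM ring, MCM7 was measured at 12.01, 11.99 and 11.90 in fusion tumors 1 to 3 and at 12.01, 11.93 and 11.75 in vector tumors 1 to 3. The groups overlapped, and the log2 fold change was 0.067 (SE 0.10, adjusted p = 0.983 by limma). MCM6, which had the largest difference among the 6 subunits, stood at 9.59, 9.58 and 9.73 in fusion and at 9.47, 9.64 and 9.49 in vector tumors. Here too the groups overlapped, since vector tumor 2 lay above fusion tumors 1 and 2 (log2 fold change 0.10, SE 0.096, adjusted p = 0.963). MCM2, MCM3, MCM4 and MCM5, the remaining subunits, had log2 fold changes of -0.022, -0.052, -0.066 and 0.00070. MCM3 was the steadiest of the 32 genes, with all 6 tumors inside a range of 0.091.

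Loading of the ring depends on ORC1 and ORC6 of the origin recognition complex and on the loaders CDC6 and CDT1. CDC6 was measured at 9.89, 10.46 and 10.16 in fusion tumors 1 to 3 and at 10.24, 10.04 and 9.99 in vector tumors 1 to 3. The fusion tumors held both the lowest and the highest CDC6 value, around a log2 fold change of 0.076 (SE 0.15, adjusted p = 0.983). CDT1 stood at 7.78, 8.06 and 7.77 in fusion and at 8.14, 8.03 and 7.81 in vector tumors, a log2 fold change of -0.12 (SE 0.12, adjusted p = 0.963). ORC1, the largest subunit of its complex, and ORC6, the smallest, had log2 fold changes of 0.016 and -0.025. ORC6 varied widely within the fusion group, from 8.57 in tumor 1 to 9.37 in tumor 2.

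The genes that activate the helicase all had log2 fold changes between -0.040 and 0.061, the narrowest span of any role with more than 1 gene. GINS1, a subunit of the GINS complex, was measured at 9.64, 9.93 and 9.90 in fusion and at 9.69, 9.80 and 9.80 in vector tumors. Tumor 1 of each group was the lowest for GINS1, and the log2 fold change was 0.061 (SE 0.11, adjusted p = 0.983). MCM10, a scaffold for the start of synthesis, CDC45 and GINS2 had log2 fold changes of 0.021, -0.040 and -0.026. GINS2 had the widest range of the 32 genes, 0.94, set within the vector group by 8.80 in tumor 1, 8.34 in tumor 2 and 7.86 in tumor 3, while the fusion tumors lay between 8.27 and 8.37.

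Of the polymerase genes, POLA1, the catalytic subunit of the enzyme that starts new strands, was measured at 8.96, 9.08 and 9.00 in fusion tumors 1 to 3 and at 9.11, 9.14 and 9.08 in vector tumors 1 to 3. The groups touched only at fusion tumor 2 and vector tumor 3 (log2 fold change -0.096, SE 0.086, adjusted p = 0.963). POLE2, the second subunit of the leading strand polymerase, and POLD1, the catalytic subunit of the lagging strand polymerase, had log2 fold changes of 0.077 and 0.094. For POLE2 the vector tumors lay within 8.68 to 8.71, and the fusion tumors were spread around them, at 8.43, 8.97 and 8.92.

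PCNA, the sliding clamp, was measured at 11.28, 11.52 and 11.47 in fusion tumors 1 to 3 and at 11.64, 11.38 and 11.34 in vector tumors 1 to 3. The highest and the second lowest value were both in vector tumors, and the log2 fold change was -0.024 (SE 0.12, adjusted p = 0.992). The clamp loader subunits diverged slightly: RFC2 had a log2 fold change of -0.17 (SE 0.13, adjusted p = 0.962), RFC3 of 0.17 (SE 0.10, adjusted p = 0.956), and RFC4 and RFC5 of 0.030 and -0.034. RFC2 stood at 9.33, 9.57 and 9.50 in fusion and at 9.88, 9.52 and 9.52 in vector tumors. Vector tumor 1 alone stood above the other 5 tumors for RFC2. RFC3 stood at 8.67, 8.89 and 8.95 in fusion and at 8.74, 8.65 and 8.59 in vector tumors, with fusion tumor 1 inside the vector range. FEN1, the nuclease that trims the flaps of Okazaki fragments, had a log2 fold change of 0.11.

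The genes of nucleotide supply held the only member without overlap between the groups. RRM2, the small subunit of ribonucleotide reductase whose level rises in S phase, was measured at 10.72, 10.88 and 10.67 in fusion tumors 1 to 3 and at 10.43, 10.48 and 10.50 in vector tumors 1 to 3. Every fusion tumor lay above every vector tumor, by a log2 fold change of 0.28 (1.22-fold, SE 0.094, 95% confidence interval 0.070 to 0.50). It did not pass the test over all genes (unadjusted p = 0.0154, adjusted p = 0.658 by limma), and the exact two-sided permutation p was 0.1, the smallest that 3 against 3 tumors can give. Groups without overlap were seen in 11.7% of all genes tested, against 1 of 32 members. The probe set of RRM2 carries the suffix x, which marks it as able to match other transcripts, as do those used for MCM2, MCM3, ORC1 and RFC2. The suffix s, for probes shared by several transcripts, is carried by 6 more: those used for CCNE1, E2F2, FEN1, MCM4, RFC5 and RRM1. The other RRM2 probe set gave a log2 fold change of only 0.063, with tumors at 10.12, 10.38 and 10.38 in the fusion group and 10.35, 10.23 and 10.12 in the vector group. With both averaged, the log2 fold change of RRM2 was 0.17 and its unadjusted p = 0.0704.

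RRM1, the large subunit of the same enzyme, leaned the other way, with a log2 fold change of -0.15 (SE 0.11, adjusted p = 0.962). Its 4 probe sets gave values from -0.15 to -0.054. TYMS, the thymidylate synthase, was measured at 12.21, 12.43 and 12.34 in fusion tumors 1 to 3 and at 12.42, 12.35 and 12.29 in vector tumors 1 to 3. The groups overlapped fully, with a log2 fold change of -0.027 (SE 0.096, adjusted p = 0.990). TK1, the thymidine kinase of the salvage route, had a log2 fold change of -0.067, with fusion tumors from 10.38 to 10.45 and vector tumors from 10.29 to 10.73.

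Upstream of these genes, cyclin E activates the kinase that releases E2F. CCNE1, a cyclin E gene, was measured at 8.28, 8.67 and 8.49 in fusion tumors 1 to 3 and at 8.95, 8.37 and 8.24 in vector tumors 1 to 3. Vector tumor 1 was the highest and vector tumor 3 the lowest, so the whole range of CCNE1 lay within the vector group (log2 fold change -0.038, SE 0.19, adjusted p = 0.992). E2F1 stood at 8.21, 8.31 and 8.06 in fusion and at 8.03, 8.20 and 7.84 in vector tumors, a log2 fold change of 0.17 (SE 0.12, adjusted p = 0.962). Vector tumor 2 lay above fusion tumor 3 for E2F1. CCNE2 and E2F2, the paralogs of both, had log2 fold changes of -0.055 and -0.080. UHRF1, which recruits the maintenance DNA methyltransferase to newly copied DNA, was measured at 9.41, 9.89 and 9.71 in fusion and 9.43, 9.59 and 9.35 in vector tumors. The UHRF1 groups overlapped at fusion tumor 1, and the log2 fold change of 0.21 (SE 0.14, adjusted p = 0.960) was the next largest after RRM2.

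**Figure D2:**
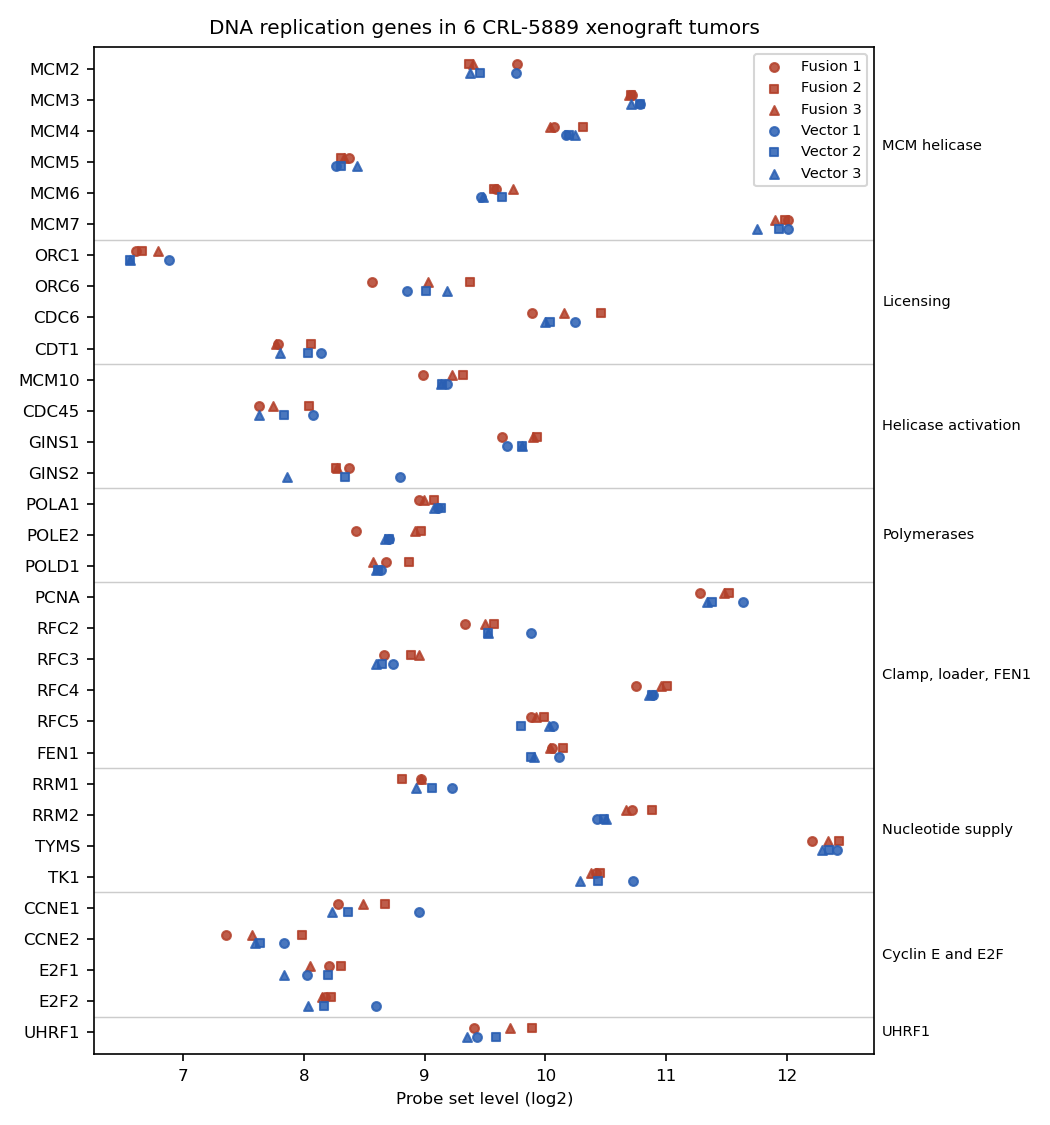
Level of the probe set used for each of the 32 genes (x axis, log2) in each tumor, fusion tumors in red and vector tumors in blue, with 1 symbol per tumor and genes grouped by role. Only for RRM2 do the 3 fusion tumors all lie above the 3 vector tumors; levels of different genes come from different probe sets and are not comparable with each other.

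Many members varied together from tumor to tumor, in an order that cut across the groups. Averaged over the 32 genes, each taken as the deviation from its own mean over the 6 tumors, fusion tumor 2 (0.11 on the log2 scale) and vector tumor 1 (0.097) were high, and fusion tumor 1 (-0.089) and vector tumor 3 (-0.094) were low. Fusion tumor 3 (0.00063) and vector tumor 2 (-0.022) lay near the middle. The high and the low tumors thus came 1 from each group. The highest value of a gene fell in fusion tumor 2 or vector tumor 1 for 26 of 32 members (81.2%), against 41.4% of all genes tested, and the lowest in fusion tumor 1 or vector tumor 3 for 20 (62.5%), against 32.2%. Fusion tumor 2 exceeded fusion tumor 1 in 25 members (78.1%), against 48.9% of all genes. Vector tumor 1 exceeded vector tumor 3 in 26 (81.2%), against 48.7%. These tumors were singled out after their values were seen, so the counts are a description without a test. The 50 other replication genes described below shared this order only in part. Their mean deviation was highest in fusion tumor 2 (0.069) and lowest in vector tumor 3 (-0.062). Vector tumor 1, high for the members, averaged -0.018 for them, with the lowest value of 18 genes and the highest of 15.

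**Figure D3:**
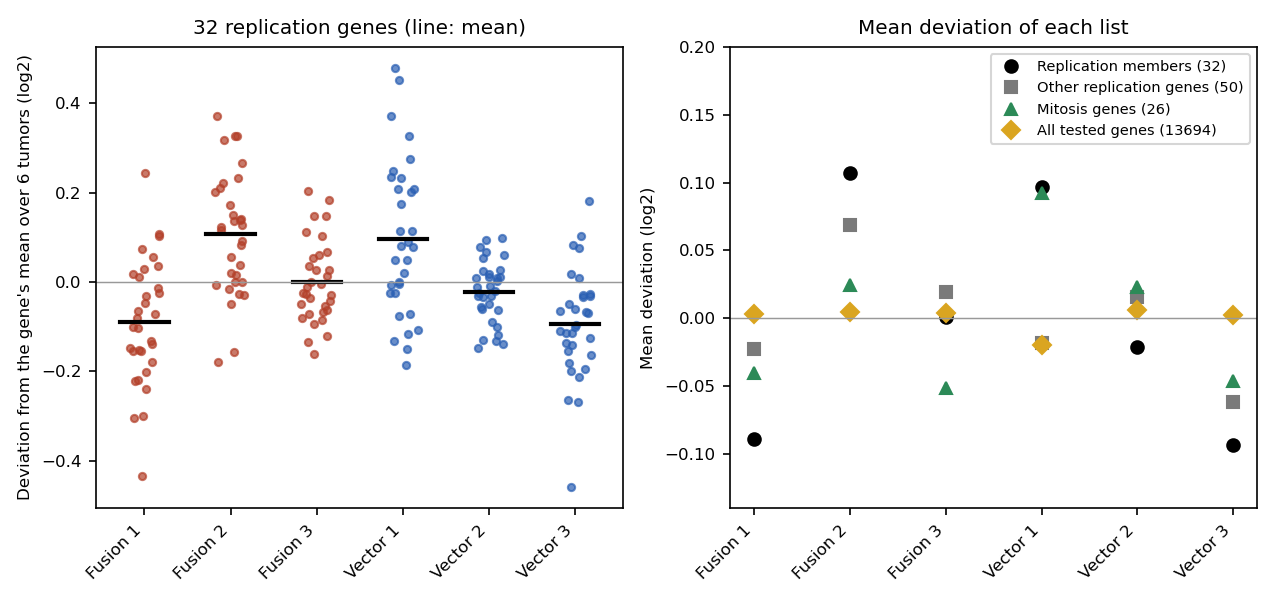
Left, deviation of each of the 32 genes from its own mean over the 6 tumors (log2), 1 point per gene, with the mean as a line. Right, the mean deviation per tumor (log2) for the 32 members, 50 other replication genes, 26 mitosis genes and all 13694 genes tested; fusion tumor 2 and vector tumor 1 are highest and fusion tumor 1 and vector tumor 3 lowest for the members, while all genes tested stay within -0.020 and 0.0061.

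The genes that followed this order most closely came from several roles. Pearson's r of a member with the mean deviation of the other 31 over the 6 tumors was 0.97 for CDC45, 0.92 for CDC6, PCNA and TYMS and 0.91 for CCNE1, and was above 0.5 for 20 of 32. These values are descriptions over 6 points that share arrays and scaling. CDC45 stood at 7.63, 8.05 and 7.75 in fusion tumors 1 to 3 and at 8.07, 7.84 and 7.63 in vector tumors 1 to 3, with the same pair of tumors highest and the same pair lowest as in the mean of the members. On average the MCM ring took little part in this order, although MCM7 followed it in part (r = 0.53). MCM5 ran against it (r = -0.84), with its lowest value in vector tumor 1 (8.27) and its highest in vector tumor 3 (8.44), and the mean of the 6 MCM subunits stayed between -0.044 and 0.042 in all tumors. MCM2 had its own pattern, with fusion tumor 1 (9.77) and vector tumor 1 (9.76) above the other 4 tumors (9.37 to 9.46), and its 3 other probe sets put the same pair of tumors on top.

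Probe sets not used for the member values had the same pair of tumors lowest on average, and the same pair highest by a smaller margin. The 41 other probe sets above the level of 4.94, from 21 members, had mean deviations of -0.066, 0.071 and 0.042 in the fusion tumors, numbered 1 to 3, against 0.056, 0.0040 and -0.11 in the vector tumors. Their lowest values fell in fusion tumor 1 for 13 probe sets and in vector tumor 3 for 15. Their highest values fell in vector tumor 1 for 14, in fusion tumor 3 for 11 and in fusion tumor 2 for 10, so that fusion tumor 3, near the middle for the member values, was among the high tumors here. The order of the member values was also seen after other scalings: after quantile normalization the members averaged 0.10 in fusion tumor 2 and 0.14 in vector tumor 1, and after median centring 0.081 and 0.18, with fusion tumor 1 and vector tumor 3 the lowest under both. Vector tumor 1 also stood apart over all genes, with 28.8% of genes at their lowest and 27.2% at their highest value there, and a first principal component score of 30.1 against -8.58 to -3.68 in the others. Without vector tumor 1 the median log2 fold change of the members was 0.070, with 24 of 32 above 0, and still 0 passed the threshold. That tumor had been seen to be high for the members, so leaving it out lowers the vector mean and moves their differences up. The share of all genes above 0 in that setting is not given here, so the count has no background to be read against.

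Skeletal muscle markers above the filter level moved in a like order. The mean level of the 3 tested of 6 listed (ACTA1, CKM and TNNT3) was 6.21, 7.24 and 6.48 in the fusion tumors, numbered 1 to 3, against 7.47, 6.81 and 6.47 in the vector tumors, so vector tumor 1 and fusion tumor 2 were the highest here as well. MYH2 and MYH7, of the same list, lay below the filter level and did not share this order. MYH2 stood at 4.82, 4.85 and 4.47 in fusion tumors 1 to 3 and at 5.10, 4.99 and 5.10 in vector tumors 1 to 3. MYH7 stood at 4.69, 4.37 and 4.24 in fusion and at 4.49, 4.48 and 4.48 in vector tumors. MYLPF had no probe set of its own. The part of muscle tissue in the levels of the replication genes was not tested. On average, the markers of 3 other cell types were ordered by group instead. The mean deviation of fibroblast markers (6 tested of 8 listed) was above 0 in all 3 fusion tumors (0.13 to 0.28) and below 0 in all 3 vector tumors (-0.28 to -0.065). FAP, COL1A1, THY1 and COL1A2 did not overlap between the groups, with log2 fold changes of 0.91, 0.65, 0.36 and 0.24. COL3A1 (0.20) and PDGFRB (0.019) did overlap. Leukocyte markers (4 tested of 8 listed) lay at 0.071 to 0.16 in fusion and at -0.19 to -0.094 in vector tumors. Within that list CD68, a macrophage marker, averaged 8.51 in fusion and 7.72 in vector tumors without overlap (log2 fold change 0.80, adjusted p = 0.112 by limma). CSF1R, the receptor of a macrophage growth factor, averaged 6.06 and 5.89, also without overlap (adjusted p = 0.935 by limma). The other tested markers, CD3E and ITGAM, overlapped between the groups, with log2 fold changes of 0.024 and 0.020. PTPRC, CD14 and LYZ were below the filter level, with differences of -0.017, -0.19 and -0.16. Adipocyte markers (3 tested of 5 listed) ran the other way, at -0.14 to -0.099 in fusion and at 0.052 to 0.18 in vector tumors. The part of these cell types in the levels of the replication genes was not tested either. The hosts were mice and the probe sets name human genes. Whether the marker values, muscle included, came from host cells or from the implanted cells was not tested.

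Probe sets of the same gene mostly pointed the same way. The 32 genes had 78 probe sets of their own, 73 of them above the filter level, and 23 genes had more than 1. Above the filter 21 genes had more than 1, and the signs differed among these for 6 of the 21. A sign says little where the difference is close to 0. The 41 unused probe sets had a median log2 fold change of 0.026, with 23 above 0 and no overlap between the groups in 4 (9.76%), against 11.7% of all genes tested, each read from 1 probe set. The largest of these differences was in MCM6, where a dimmer probe set stood at 6.39, 6.72 and 6.60 in fusion and at 5.98, 6.15 and 6.29 in vector tumors (log2 fold change 0.43). The brightest MCM6 probe set gave 0.10, as above, and the third 0.18. CDT1 had the widest disagreement, from -0.32 in a probe set with all fusion tumors below all vector tumors to 0.090 in another.

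**Figure D4:**
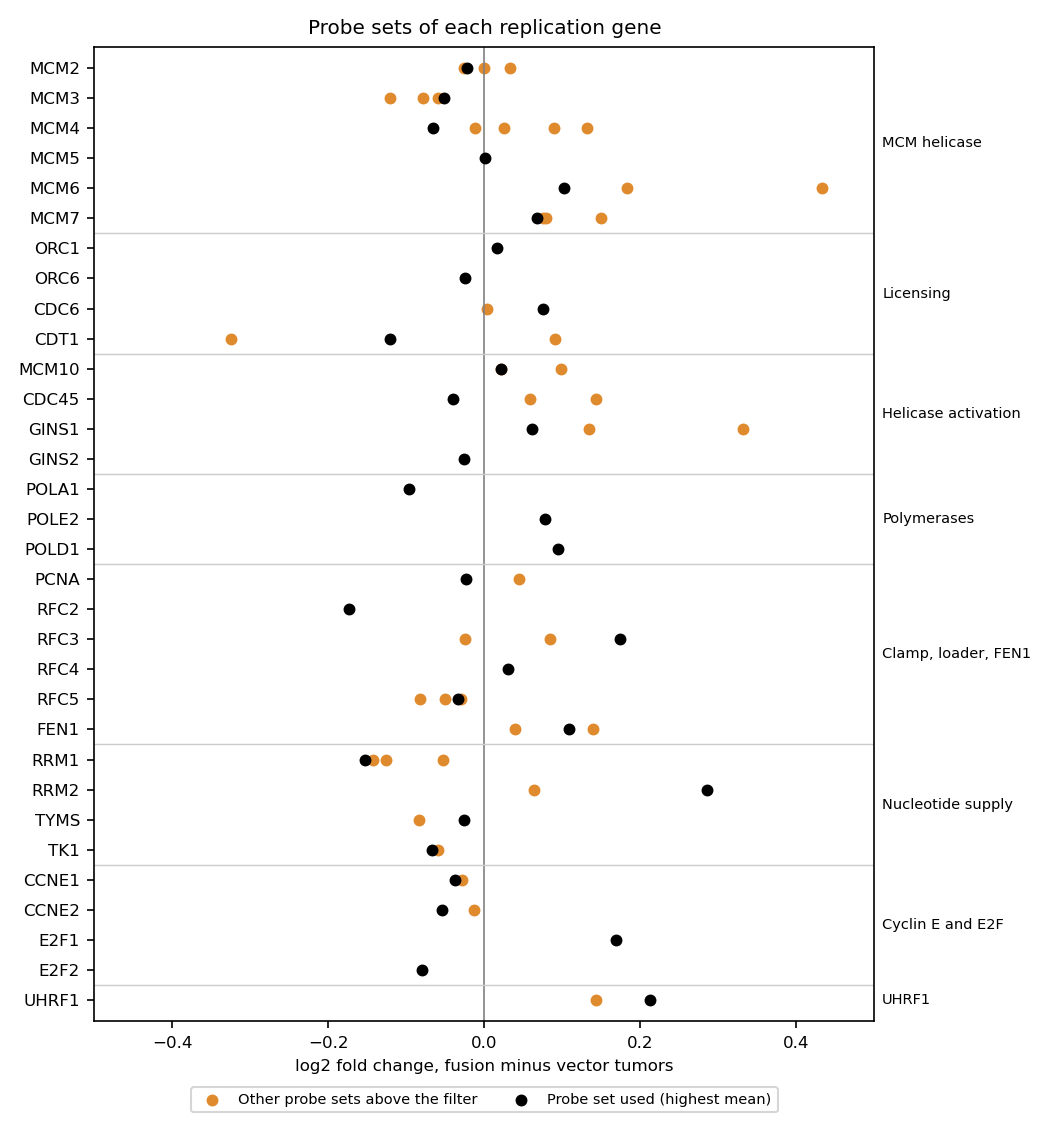
The log2 fold change (x axis, fusion minus vector tumors) of each of the 73 probe sets above the filter level, by gene. Black points are the probe sets used and orange points the others; most lie within 0.2 of 0, and MCM6, GINS1 and CDT1 have the points farthest from it.

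The wider replication machinery was measured in a second list of genes. Of 51 other replication genes, such as the remaining origin, polymerase and single-strand binding subunits, 50 had a probe set of their own and were tested. By limma 0 passed the threshold, and 1 was higher and 0 were lower at an unadjusted p below 0.05. In the main fit 29 were above 0 (median log2 fold change 0.026), against 50.8% of all genes tested. Without vector tumor 1 the count was 35, for which the share of all genes is not given here. MCMBP, a binding partner of the MCM subunits, had the smallest p: it stood at 10.55, 10.45 and 10.41 in fusion and at 10.06, 10.17 and 10.15 in vector tumors, a log2 fold change of 0.34 (SE 0.089, adjusted p = 0.424). The next by p were ORC2 (0.35), POLD3 (0.19) and MCM8 (0.23), with adjusted p values of 0.855, 0.866 and 0.915. In 5 of the 50 genes all fusion tumors lay above all vector tumors and in 0 all lay below, against 5.94% and 5.74% of all genes tested.

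Mitosis genes act after the replication genes in the cell cycle. Of 26 tested, 8 were above 0 and 18 below (median -0.088), 0 passed the threshold by limma, and 1 was higher and 1 lower at an unadjusted p below 0.05, against 3.16% and 2.73% of all genes tested. These were MKI67, the proliferation antigen (log2 fold change 0.28, adjusted p = 0.829), and KIF20A, a kinesin of cell division (-0.32, adjusted p = 0.829). The next by p were AURKB, a kinase of chromosome segregation (-0.33), and CCNB1, the mitotic cyclin (-0.21). Vector tumor 1 held the highest value for 16 of the 26 mitosis genes, and without it 12 were above 0 and 14 below, with a median of -0.0095. The share of all genes above 0 without that tumor is not given here.

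Over the whole series, Pearson's r between any pair of arrays lay between 0.989 and 0.997, and array medians ran from 6.27 in vector tumor 1 to 6.39. TRA2B and DNAH5, the partners of the fusion, had log2 fold changes of 0.039 and -0.0043, but the labels do not say which parts the construct holds, so its presence was not checked by them. Several squamous markers were at or near the filter level: KRT5 averaged 5.06 over the fusion and 5.19 over the vector tumors, and KRT14 5.71 and 5.70, while DSG3, DSC3 and EPCAM were below it, and TP63, KRT6A and KRT17 had no probe set of their own here. SOX2, a squamous lineage factor, was measured at 8.82 and 9.65 (adjusted p = 0.369), and KRT18 at 8.55 and 8.57. Among fibroblast markers DCN and LUM were below the filter level.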

How the data were processed

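One Affymetrix array was hybridised per tumor, per the labels. The authors deposited log2 values per probe set; the unit was read from the values, and how background, normalization and summarisation were handled is not given in the sources used here. Of 49293 probe sets, 44988 named a single gene, 1832 several and 2473 none here. Genes (18132) were represented by their brightest probe set, and those averaging under the 30th percentile of probe sets (4.94) were dropped, leaving 13694. The groups were tested with limma (version 3.58.1, R 4.3.3; two-sided, no variance trend), with Benjamini-Hochberg adjustment over all 13694 genes. The labels call the tumors biological replicates but name no mouse, so p values measure the spread between these tumors; 3 arrays per group limit the precision. Same-numbered tumors deviated together only weakly (r = 0.097, 0.17 and 0.051 over genes), so the number is not a term. Members and lists were chosen with earlier results of these data known. Tumor values are given for the brightest and the most different member of each role and for members without overlap or at an unadjusted p below 0.05, and up to 4 genes by p from the other replication and mitosis lists; values of other members were picked after they were seen. The fit was tested on simulated data. Alternatives covered filter, probe set choice, scaling, model and each tumor left out.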

Additional observations from a re-analysis of the deposited data

How the results depend on the processing

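In all 15 alternatives planned for the fit and at an adjusted p of 0.1, limma called 0 of the members; their smallest adjusted p over all settings was 0.210, that of RFC3 with array weights. The log2 fold change kept its sign in every setting for 13 members, RRM2 (0.17 to 0.33) among them, and changed it in at least 1 for the other 19, none of which was called. The median over the members stayed between -0.052 (median centring) and 0.070 (without vector tumor 1). Members at an unadjusted p below 0.05 numbered 2 with the most variable probe set and 2 with array weights, and 0 to 4 with each tumor left out in turn: 0 without fusion tumor 2, and 4 without fusion tumor 1, namely RRM2, UHRF1, RFC3 and POLE2. In the main fit 5.89% of all genes passed that mark. The share of all genes in each alternative is not given here, so these counts have no background to be read against. Over all genes, limma called 1 with the filter at the 50th percentile, 16 with the mean of probe sets, 6 with the most variable one, 140 with array weights, and 0 to 37 with a tumor left out (0 without fusion tumor 1, 3 without fusion tumor 2 or 3 or vector tumor 2 or 3, 37 without vector tumor 1). The cause was not tested. With the replicate block limma called 8 genes and 0 members, and RRM2 had an unadjusted p of 0.0234; the numbers do not pair the tumors. Members without overlap, recounted after seeing the data, numbered 3 of 32 (9.38%) with the mean of probe sets, against 12.3% of all genes tested in that setting, 3 of 31 (9.68%, against 11.5%) with the most variable one, 2 (6.25%) after quantile normalization or median centring (against 11.8% and 11.5%), and 3 to 8 with a tumor left out, against 18.5% to 25.8% of all genes; the 8 (25%, against 21.8%) were without fusion tumor 1. The depth limit is the number of arrays, since signal over background is not known.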
